A study of Mus musculus with 8 samples.

Results

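Collagen hydroxylation and crosslinking was examined through the mRNA levels of 10 genes: the lysyl oxidases Lox, Loxl1, Loxl2, Loxl3 and Loxl4, the lysyl hydroxylases Plod1, Plod2 and Plod3, and the prolyl 4-hydroxylase catalytic subunits P4ha1 and P4ha2. The genes were taken from the count table by name, as a functional group, and compared between cultures with and without parathyroid hormone (PTH). Each of the 10 symbols was found in 1 of the 47706 rows of the count table, and all 10 were among the 16736 genes with enough counts to be tested. RNA sequencing was performed on primary osteoblasts, the bone-forming cells, from the calvaria (skull cap) of neonatal mice. The cultures were differentiated for 7 days, and after a period in low serum 4 samples were treated for 24 hours with the amino-terminal PTH fragment (PTH, replicates 1 to 4) and 4 with its saline vehicle (Vehicle, replicates 1 to 4). Both treatments therefore shared the cell type, the differentiation and the serum starvation. The sample titles also carry the prefix Con for all 8 samples, which the labels do not explain, and no strain or genotype is given there. The labels call the differentiation adipogenic, whereas the study's methods describe osteogenic medium with ascorbate and a phosphate source. The labels do not say whether replicates came from separate isolations of cells, so the p-values measure only the spread between these samples, which may be technical.

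Total counts per sample lay between 33605610 and 56090654. The 10 osteoblast markers examined, among them Runx2, Sp7, Ibsp and Bglap, had a median between 208 and 353 CPM per sample. CPM are counts scaled to the normalized size of each library. Of these 10 markers, 0 rose and 3 fell, beside 23.3% and 22.5% of all genes tested. The 8 adipocyte markers had a median between 2.67 and 5.24 CPM, and of the 7 tested 0 rose and 1 fell. The 6 smooth muscle and myofibroblast markers summed to 2334 to 2865 CPM with vehicle and 2165 to 2704 CPM with PTH. Of these, 1 rose and 2 fell. The 6 tenocyte and fibroblast markers summed to 782 to 928 CPM with vehicle and 814 to 919 CPM with PTH, and 2 rose and 2 fell. Markers of macrophages, 10 genes led by Lyz2, summed to 1049 to 1700 CPM with vehicle and 1645 to 2125 CPM with PTH, and 3 of the 10 rose, beside 23.3% of all genes tested. The 6 chondrocyte markers summed to 316 to 332 CPM with vehicle and 370 to 486 CPM with PTH, and 3 of the 5 tested rose. Col2a1 alone, one of the 3, made up 226 ± 3.49 CPM of this sum with vehicle and 307 ± 40.1 CPM with PTH. The 23.3% that rose and 22.5% that fell among all genes tested stand beside each of these marker lists. These are whole cultures: fewer cells of a type and less RNA per cell cannot be told apart, and the part of other cells in the changes of the enzyme genes was not tested. Tnfsf11, the gene of RANKL and a known PTH target in osteoblasts, averaged 1.42 ± 0.365 CPM (SD, n = 4) with vehicle and 128 ± 20.01 CPM with PTH.

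Collagen chains are modified before they fold and again after they are secreted. Inside the endoplasmic reticulum, prolyl 4-hydroxylases convert proline to hydroxyproline, which keeps the triple helix stable at body temperature, and lysyl hydroxylases convert lysine to hydroxylysine, which carries sugars in the helix and shapes the crosslinks formed later. Both enzyme groups need iron, oxygen, alpha-ketoglutarate and ascorbate. Outside the cell, the copper-dependent lysyl oxidases turn lysine and hydroxylysine into reactive aldehydes that join neighbouring molecules of collagen or elastin. In bone these crosslinks give the fibrils their tensile strength, and hydroxylation in the telopeptides, the short ends outside the helix, favours the crosslink type found in mineralized tissue.

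After PTH, 3 of the 10 enzyme genes rose (Plod2, Plod3 and P4ha2), 2 fell (Lox and Loxl4), and 5 did not pass the test (Loxl1, Loxl2, Loxl3, Plod1 and P4ha1). Genes were called at an adjusted p under 0.05 with no minimum fold change, from the quasi-likelihood fit of edgeR, with p-values adjusted over every gene tested after Benjamini and Hochberg. These 5 of 10 genes stand beside 45.8% of all genes tested that were called, 23.3% upward and 22.5% downward. The samples of the 2 treatments did not overlap for 4 enzyme genes (Lox, Loxl4, Plod2 and Plod3), beside 43.0% of all genes tested. The median log2 fold change of the 10 genes was −0.04 and their median absolute log2 fold change was 0.31, beside 0.00 and 0.35 over all genes tested. As a list, the enzyme genes were thus called about as often as other genes, and moved in both directions. Leaving out 1 sample at a time gave between 2 and 4 enzyme genes that rose and between 1 and 4 that fell. Without PTH replicate 1 there were 4 that fell, beside 3955 of all 17089 genes tested in that fit. There was 1 without PTH replicate 3 (beside 3386 of 17039), Vehicle replicate 3 (3314 of 17058) or Vehicle replicate 4 (3429 of 17040). Without PTH replicate 2 there were 4 that rose, beside 3807 of 17004. There were 2 that rose without PTH replicate 4 (3612 of 17053) or Vehicle replicate 4 (3680 of 17040).

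**Figure D1:**
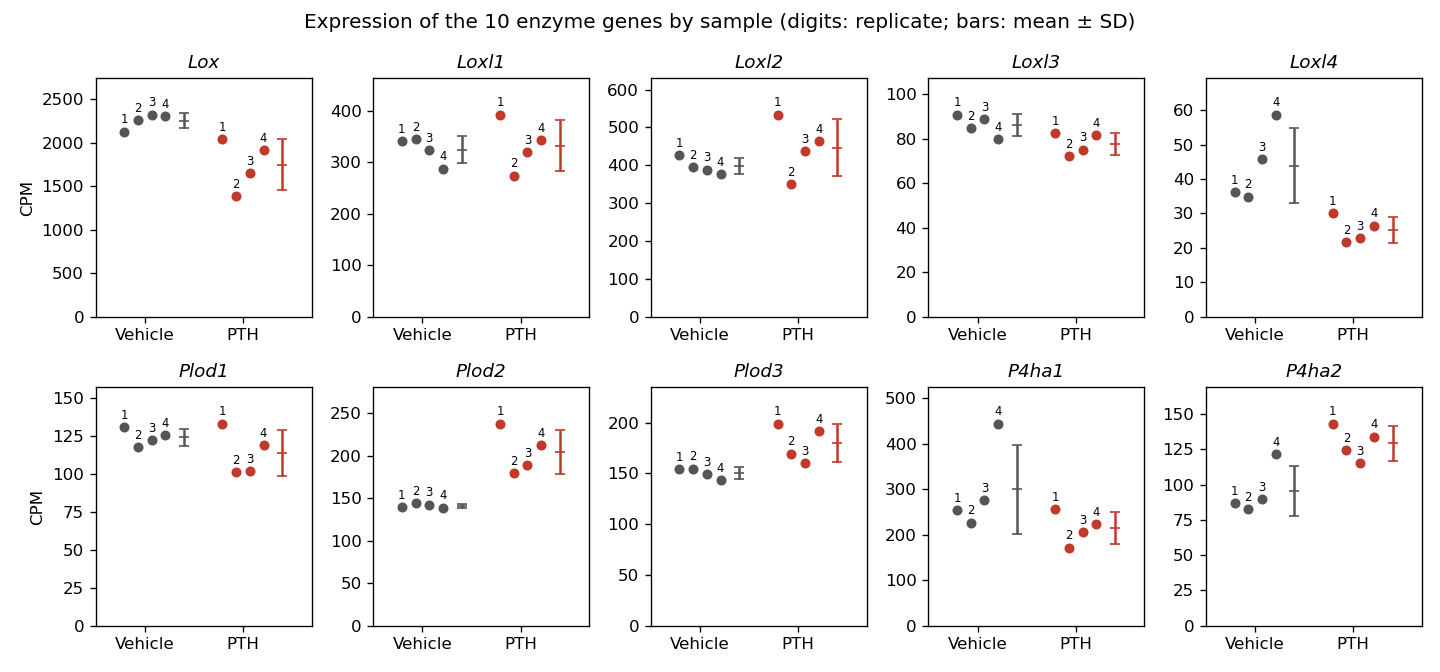
Expression of the 10 enzyme genes in each sample. The y axes, which start at 0, give TMM-normalized CPM; grey points are vehicle and red points PTH samples, numbered by replicate, and bars give the mean ± SD. The PTH samples of Plod2, from 180 to 237 CPM, all lie above the vehicle samples, those of Loxl4, from 21.6 to 29.98 CPM, all lie below, and Vehicle replicate 4 stands highest for P4ha1 at 444 CPM.

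Lox, the founding lysyl oxidase and the most abundant of these enzymes, lies on the minus strand of chromosome 18. It measured 2125, 2259, 2321 and 2303 CPM in Vehicle replicates 1 to 4 and 2042, 1384, 1648 and 1912 CPM in PTH replicates 1 to 4. Each PTH sample was below each vehicle sample, and the PTH samples varied more than the vehicle samples. The means were 2252 ± 88.6 CPM (SD, n = 4) with vehicle and 1747 ± 292 CPM with PTH, and expression fell by 22.4% (log2 fold change −0.37, SE 0.11, 95% interval −0.61 to −0.12, adjusted p = 0.0189). The call was lost in 4 of 8 fits that each left out 1 sample: the adjusted p was 0.0643 without PTH replicate 3, 0.0538 without Vehicle replicate 2, 0.0527 without Vehicle replicate 3 and 0.0510 without Vehicle replicate 4, with log2 fold changes between −0.37 and −0.34 in these fits.

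Loxl4 (chr19:42593982-42612813, GRCm38, minus strand) was the least abundant member of the family. It encodes a lysyl oxidase with scavenger receptor domains ahead of the catalytic domain, an arrangement shared with Loxl2 and Loxl3. It measured 36.1, 34.9, 45.8 and 58.7 CPM in Vehicle replicates 1 to 4 and 29.98, 21.6, 22.8 and 26.4 CPM in PTH replicates 1 to 4. The PTH samples all lay below the vehicle samples, of which replicate 4 was the highest. Loxl4 had the largest log2 fold change of the 10 genes in either direction and fell by 42.6%, from 43.9 ± 11.01 CPM to 25.2 ± 3.79 CPM (log2 fold change −0.80, SE 0.16, 95% interval −1.15 to −0.45, adjusted p = 0.00147). Without Vehicle replicate 4 the log2 fold change was −0.63 and the adjusted p was 0.00315.

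The other lysyl oxidases did not pass the test. Loxl1 (chr9:58287738-58313186, minus strand), best known for crosslinking elastin, measured 341, 344, 323 and 287 CPM in Vehicle replicates 1 to 4 and 391.96, 274, 319 and 343 CPM in PTH replicates 1 to 4. PTH replicate 1 was the highest of these samples and PTH replicate 2 the lowest, so the vehicle samples lay within the range of the PTH samples. Its log2 fold change was 0.04 (SE 0.10, 95% interval −0.19 to 0.26, adjusted p = 0.795), and it was −0.05 without PTH replicate 1 and −0.02 without Vehicle replicate 4. Loxl2 (chr14:69609068-69695834, plus strand), which acts on the basement membrane collagen IV as well as on fibrillar collagen, measured 427, 396, 389 and 377 CPM with vehicle and 534, 350, 438 and 465 CPM with PTH, in order of replicate. For Loxl2, 3 PTH samples lay above all vehicle samples and PTH replicate 2 lay below them. Its log2 fold change was 0.17 (SE 0.11, 95% interval −0.07 to 0.41, adjusted p = 0.231), and without PTH replicate 2 it was 0.28 with an adjusted p of 0.0155. Loxl3 (chr6:83034173-83052562, plus strand) measured 90.7, 84.5, 88.8 and 79.6 CPM with vehicle and 82.3, 72.0, 74.96 and 81.4 CPM with PTH. The treatments overlapped for Loxl3, with Vehicle replicate 4 below PTH replicates 1 and 4 (log2 fold change −0.15, SE 0.07, 95% interval −0.29 to 0.00, adjusted p = 0.104).

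Among the lysyl hydroxylases, Plod2 (chr9:92542223-92608428, plus strand) rose most. PLOD2 is the enzyme known for hydroxylating telopeptide lysines, and its loss in people causes a brittle bone disorder with joint contractures. Plod2 measured 139, 144, 142 and 139 CPM in Vehicle replicates 1 to 4 and 237, 180, 189 and 213 CPM in PTH replicates 1 to 4. The vehicle samples were nearly alike and every PTH sample stood above them. The mean rose by 45.0%, from 141 ± 2.43 CPM to 205 ± 25.9 CPM (log2 fold change 0.54, SE 0.08, 95% interval 0.35 to 0.72, adjusted p = 2.70e-04). Plod2 was called in all 8 fits that left out 1 sample, with log2 fold changes between 0.45 and 0.60.

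Plod3 (chr5:136987019-136996648, plus strand) encodes the lysyl hydroxylase that also transfers galactose and glucose onto hydroxylysine. It measured 154, 155, 149 and 143 CPM in Vehicle replicates 1 to 4 and 199, 169, 160 and 191 CPM in PTH replicates 1 to 4. The treatments did not overlap, although PTH replicate 3 lay close to the highest vehicle samples. The mean rose by 19.6%, from 150 ± 5.46 CPM to 180 ± 18.4 CPM (log2 fold change 0.26, SE 0.08, 95% interval 0.09 to 0.43, adjusted p = 0.0161). The call was lost without PTH replicate 4 (adjusted p = 0.0544) and without Vehicle replicate 4 (adjusted p = 0.0621). Plod1 (chr4:147909753-147936767, minus strand), which hydroxylates lysines of the helix, measured 131, 117, 122 and 125 CPM with vehicle and 133, 101, 102 and 119 CPM with PTH. Its treatments overlapped, since PTH replicate 1 exceeded every vehicle sample (log2 fold change −0.12, SE 0.09, 95% interval −0.32 to 0.07, adjusted p = 0.280). Without PTH replicate 1 the log2 fold change of Plod1 was −0.21 with an adjusted p of 0.0342.

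P4ha1 and P4ha2 encode alternative catalytic subunits of prolyl 4-hydroxylase, which works as a tetramer with the protein disulfide isomerase P4HB. P4ha1 (chr10:59323296-59373304, plus strand) measured 253, 226, 276 and 444 CPM in Vehicle replicates 1 to 4 and 257, 172, 206 and 223 CPM in PTH replicates 1 to 4. Vehicle replicate 4 stood far above the other 7 samples, and PTH replicate 1 lay within the vehicle range. The means were 300.0 ± 98.3 CPM and 214 ± 35.4 CPM, and the log2 fold change was −0.48 (SE 0.19, 95% interval −0.90 to −0.07, adjusted p = 0.0536). Without Vehicle replicate 4 the log2 fold change was −0.23 (adjusted p = 0.181), whereas the gene passed the test without PTH replicate 1 (adjusted p = 0.0250) and without Vehicle replicate 2 (adjusted p = 0.0266).

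P4ha2 (chr11:54100095-54131665, plus strand) rose. It measured 87.0, 82.5, 89.8 and 121 CPM in Vehicle replicates 1 to 4 and 143, 124, 115 and 134 CPM in PTH replicates 1 to 4. Vehicle replicate 4 was the highest vehicle sample here too and exceeded PTH replicate 3, so the treatments overlapped. The mean rose by 35.6%, from 95.2 ± 17.7 CPM to 129 ± 12.1 CPM (log2 fold change 0.44, SE 0.12, 95% interval 0.19 to 0.69, adjusted p = 0.00827). Without Vehicle replicate 4 the log2 fold change was 0.58 with an adjusted p of 4.06e-04, and P4ha2 was called in all 8 fits that left out 1 sample.

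**Figure D2:**
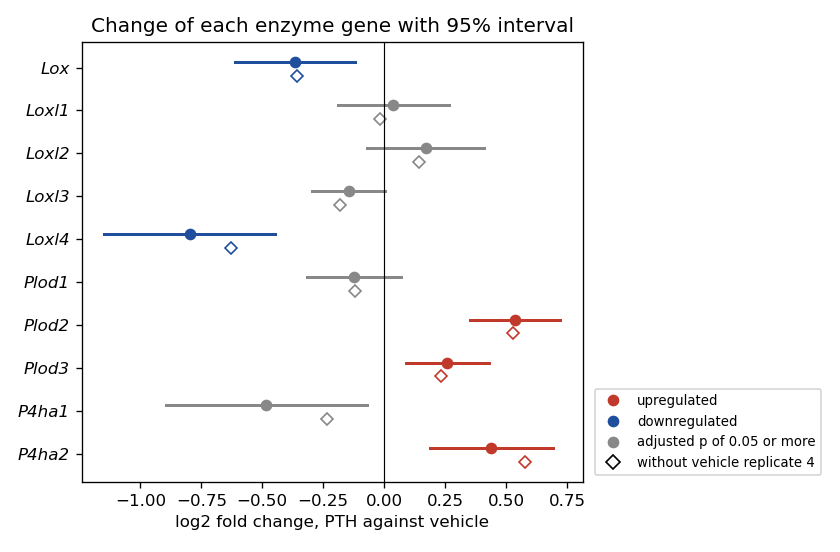
Change of each enzyme gene after PTH. The x axis gives the log2 fold change of PTH against vehicle; filled points with 95% intervals are from all 8 samples, and open diamonds leave out Vehicle replicate 4. Plod2, Plod3 and P4ha2 lie to the right of 0 and Lox and Loxl4 to the left; leaving out Vehicle replicate 4 moved P4ha1 from −0.48 to −0.23, and Lox and Plod3 then missed the threshold with adjusted p-values of 0.0510 and 0.0621.

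P4ha1, P4ha2 and Loxl4 were the 3 enzyme genes that were highest in Vehicle replicate 4 among the vehicle samples, at 1.76, 1.40 and 1.51 times the mean of the other vehicle samples. These 3 of 10 genes stand beside 25.4% of all genes tested, a similar share. Vehicle replicate 4 was also the lowest vehicle sample for 5 of the 10, beside 28.8% of all genes tested. The other 7 enzyme genes had ratios between 0.854 and 1.03. Over all genes tested the median ratio was 0.989, and the 5th and 95th percentiles were 0.640 and 1.55, so of the enzyme genes P4ha1 alone lay outside that range. Because prolyl 4-hydroxylase genes are known targets of HIF-1, the transcription factor of the response to low oxygen, 12 genes commonly induced by HIF-1 were measured beside them. Of these 12 genes, 10 were highest in Vehicle replicate 4 among the vehicle samples, beside 25.4% of all genes tested. High ratios were not confined to these genes. In the collagen lists described below, Pcolce2, Col11a2 and P3h2 had ratios of 1.89, 1.61 and 1.59. In the lists of these 3 genes, 2 of 7, 3 of 9 and 2 of 6 tested genes were highest in Vehicle replicate 4. Egln3, an oxygen-sensing hydroxylase, had a ratio of 2.34 at a low level: 2.92, 1.26, 0.855 and 3.93 CPM in Vehicle replicates 1 to 4. Vegfa, the angiogenic growth factor, had a ratio of 1.47, inside the range given above. Plod2 and Lox are also known HIF-1 targets, and their ratios were 0.978 and 1.03. The part of HIF-1 in the P4ha1 and Loxl4 values was not tested. The summed macrophage markers were also highest there among the vehicle samples, at 1700 CPM against 1049 to 1286 CPM.

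**Figure D3:**
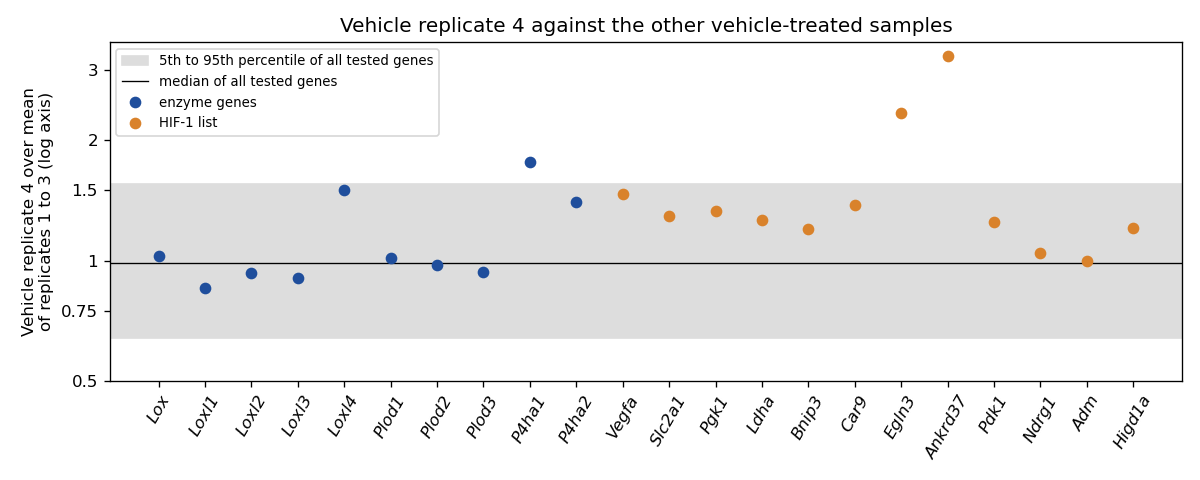
Vehicle replicate 4 against the other vehicle samples. The y axis, which is logarithmic, gives its CPM divided by the mean CPM of Vehicle replicates 1 to 3 for the 10 enzyme genes (blue) and 12 genes commonly induced by HIF-1 (orange); the grey band spans the 5th to 95th percentile of all tested genes. P4ha1 (1.76), Egln3 (2.34) and Ankrd37 (3.25) lie above the band. Egln3 and Ankrd37 were at low levels, reaching 3.93 and 2.20 CPM in Vehicle replicate 4.

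The promoter sequences of P4ha1, P4ha2 and Loxl4 are shown because Vehicle replicate 4 was their highest vehicle sample while their changes after PTH differed. As given above, 3 of 10 is near the share over all genes tested, and only P4ha1 lay outside the percentile range. The sequences are the 250 bases before the start annotated by RefSeq on build GRCm38.p6, where 5 of the 10 enzyme genes were matched (Loxl4, Plod1, Plod3, P4ha1 and P4ha2). Each is written 5′ to 3′ on the strand of the gene, and capitals mark matches on either strand to ACGTG or GCGTG, the cores of hypoxia response elements, or to TGACG, the core of the cAMP response element. The windows are chr10:59323046-59323295 (plus strand) for P4ha1, chr11:54100674-54100923 (plus strand) for P4ha2 and chr19:42612807-42613056 (minus strand) for Loxl4. The RefSeq starts can differ from the GENCODE gene limits given with each gene: the window of P4ha2 lies inside the GENCODE gene, whose outermost transcript begins upstream of it, and that of Loxl4 overlaps the end of the GENCODE gene by a few bases.
P4ha1: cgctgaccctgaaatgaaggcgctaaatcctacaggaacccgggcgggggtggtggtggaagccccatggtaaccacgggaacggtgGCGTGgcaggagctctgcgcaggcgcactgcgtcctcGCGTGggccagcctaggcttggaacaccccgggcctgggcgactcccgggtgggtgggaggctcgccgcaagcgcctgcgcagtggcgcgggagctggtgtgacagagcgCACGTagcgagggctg
P4ha2: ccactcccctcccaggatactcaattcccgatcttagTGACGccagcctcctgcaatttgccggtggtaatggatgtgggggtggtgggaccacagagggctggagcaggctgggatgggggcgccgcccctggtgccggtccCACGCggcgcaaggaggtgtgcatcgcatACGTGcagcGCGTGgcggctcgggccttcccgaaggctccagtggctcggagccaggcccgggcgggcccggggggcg
Loxl4: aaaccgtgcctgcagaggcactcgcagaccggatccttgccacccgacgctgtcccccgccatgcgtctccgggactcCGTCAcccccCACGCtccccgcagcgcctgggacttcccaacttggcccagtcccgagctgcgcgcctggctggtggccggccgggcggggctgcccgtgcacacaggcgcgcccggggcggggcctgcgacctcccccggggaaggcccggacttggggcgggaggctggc
Motifs were searched in the window from 250 bases before to 50 bases after the start, counting the base before the start as −1 and giving the first base of each match. P4ha1 held ACGTG at −16 and GCGTG at −163 and −126, and P4ha2 held ACGTG at −78 and 10, GCGTG at −107 and −69, and TGACG at −213 and 41. Loxl4 held GCGTG at −162 and TGACG at −172, and no ACGTG. Of 32851 promoters in the table, 19.6% held ACGTG, 32.4% held GCGTG and 20.8% held TGACG. All 5 matched enzyme genes held GCGTG, and Plod3 held ACGTG as well. None of the 5 held the cAMP response element palindrome TGACGTCA, found in 1.79% of promoters, or the AP-1 sites TGAGTCA and TGACTCA, which are reverse complements of each other and were found in 5.20%. These matches describe the letters in the window and do not show that a factor binds there.

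To compare the genes with each other, CPM were divided by exon length in kilobases. In vehicle-treated cultures the order of levels was Lox (471 ± 18.6 CPM per kilobase), Loxl1 (98.1 ± 7.93), Loxl2 (73.5 ± 3.92), P4ha1 (72.9 ± 23.9), Plod3 (33.3 ± 1.21), Plod2 (26.2 ± 0.451), Loxl3 (18.7 ± 1.07), Plod1 (18.3 ± 0.826), P4ha2 (15.3 ± 2.84) and Loxl4 (10.4 ± 2.61), each the mean ± SD of 4 samples. P4ha1 overlapped with Loxl1 and Loxl2, P4ha2 with Loxl3, Plod1 and Loxl4, and Loxl3 with Plod1, so the order within these pairs is not resolved. With PTH, P4ha2 at 20.7 ± 1.94 CPM per kilobase stood above Loxl3 at 16.9 ± 1.08 without overlap, and overlapped with Plod1 at 16.8 ± 2.24. Loxl1 (101 ± 14.9) and Loxl2 (82.6 ± 14.04) overlapped with PTH, as did P4ha1 (52.1 ± 8.61), Plod3 (39.8 ± 4.06) and Plod2 (37.9 ± 4.81) with one another, and Loxl3 with Plod1. Lox stayed the highest of the 10 genes at 366 ± 61.1 CPM per kilobase and Loxl4 the lowest at 5.98 ± 0.900. The order of the middle genes depends on the length used: with the longest transcript in place of all exons, P4ha2 stood above Loxl3 without overlap in both treatments, and above Plod1 without overlap with PTH, whereas P4ha2 and Plod1 overlapped with vehicle.

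The make-up of each enzyme family was compared within samples, as the share of a gene in the summed CPM per kilobase of its family. The Lox share of the 5 lysyl oxidases was 67.9%, 69.8%, 70.8% and 71.9% in Vehicle replicates 1 to 4 and 63.8%, 63.2%, 63.3% and 65.2% in PTH replicates 1 to 4. These samples did not overlap, and the mean went from 70.1% ± 1.73 to 63.9% ± 0.896, a difference of −6.24 points (exact two-sided permutation test, p = 0.0286). The shares of Loxl1 and Loxl2 were 14.6% and 10.9% with vehicle and 17.6% and 14.4% with PTH. The shares of a family add up to a fixed total, so a share can move without a change of its own gene. In CPM, Loxl1, Loxl2 and Plod1 did not pass the test. The Plod2 share of the 3 lysyl hydroxylases was 32.6%, 34.1%, 34.0% and 33.9% with vehicle and 40.9%, 38.9%, 41.0% and 39.7% with PTH, again without overlap. Its mean went from 33.7% ± 0.717 to 40.1% ± 1.02 (6.44 points, exact permutation p = 0.0286), while the Plod1 share went from 23.6% to 17.7% and the Plod3 share from 42.8% to 42.2%.

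The P4ha1 share of P4ha1 and P4ha2 together was 81.5%, 80.6%, 82.4% and 84.7% in Vehicle replicates 1 to 4 and 73.1%, 67.7%, 73.1% and 71.6% in PTH replicates 1 to 4. Vehicle replicate 4, which had the highest levels of both genes among the vehicle samples, had the highest share too, and every PTH share lay below every vehicle share. The mean went from 82.3% ± 1.77 to 71.4% ± 2.58 (−10.9 points, exact permutation p = 0.0286). For each of the 3 shares the p-value is the smallest that 4 against 4 samples can give, and it is also the value adjusted over the 3 shares. How often shares within other gene families separate the treatments was not examined. In CPM, 43.0% of all genes tested did not overlap, so separation is not particular to these families. Leaving out 1 sample at a time gave differences between −6.99 and −5.64 points for Lox, 6.09 and 6.86 points for Plod2 and −11.5 and −9.67 points for P4ha1.

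**Figure D4:**
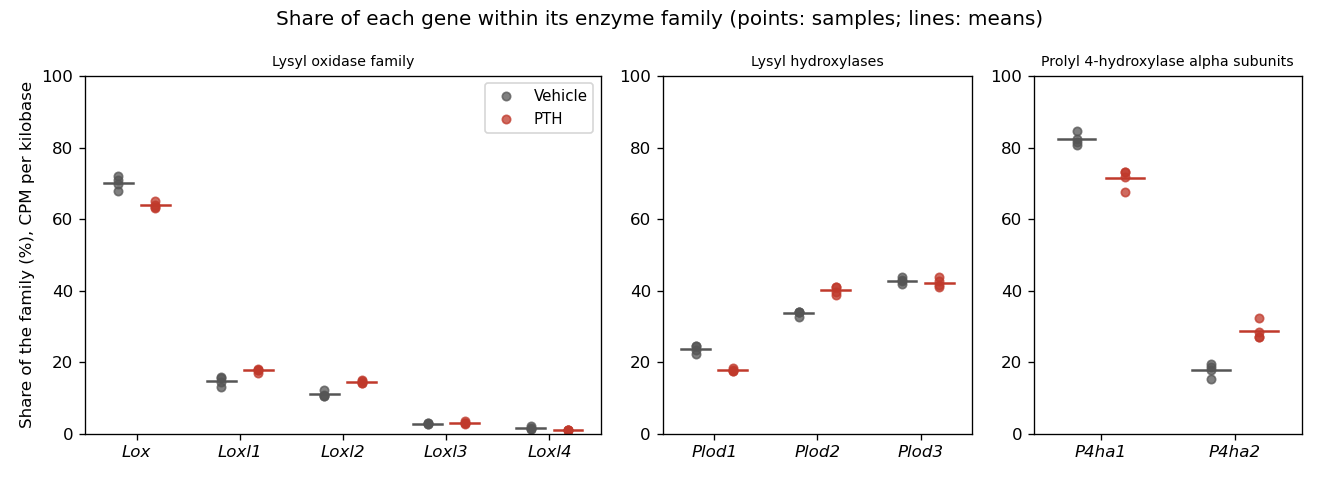
Make-up of the 3 enzyme families. The y axes, from 0 to 100, give the share (%) of each gene in the summed CPM per kilobase of its family; points are samples and lines are means of 4 (grey vehicle, red PTH). The means for Lox were 70.1% with vehicle and 63.9% with PTH, for Plod2 33.7% and 40.1%, and for P4ha1 82.3% and 71.4%. The catalytic subunit P4ha3 is left out of the prolyl 4-hydroxylase panel. With P4ha3 counted, the P4ha1 means were 46.8% with vehicle and 35.8% with PTH.

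The PTH samples also differed from each other in a way that many enzyme genes shared. PTH replicate 1 was the highest PTH sample for 10 of the 10 enzyme genes, beside 29.9% of all genes tested, and PTH replicate 2 was the lowest for 8 of them, beside 29.7%. The summed CPM of Col1a1 and Col1a2, the chains of type I collagen, was 103006, 71144, 71451 and 88168 in PTH replicates 1 to 4 and lay between 74342 and 83589 with vehicle. PTH replicate 1 was also the deepest library and PTH replicate 2 the shallowest, and the part of depth in this order was not tested. The enzymes were therefore set against their substrate as the ratio to 1000 CPM of Col1a1 plus Col1a2, a comparison chosen after these values had been seen. Lox went from 28.4 ± 1.43 to 21.01 ± 1.69 per 1000, Loxl4 from 0.549 ± 0.112 to 0.303 ± 0.0119, P4ha1 from 3.75 ± 1.05 to 2.58 ± 0.209, Plod1 from 1.56 ± 0.0845 to 1.37 ± 0.0649 and Plod2 from 1.78 ± 0.116 to 2.47 ± 0.145. For these 5 of the 10 genes the treatments did not overlap, beside 29.4% of all genes tested under the same ratio. The vehicle ratios of P4ha1 ranged from 3.04 to 5.31 per 1000, and its highest PTH ratio was 2.89. Its change on this scale without Vehicle replicate 4 was not examined. On this scale Plod3 overlapped, with a log2 ratio between treatments of 0.20 beside 0.26 in CPM (exact permutation p = 0.0857). P4ha2 overlapped both here and in CPM, with log2 values of 0.40 and 0.44 (exact permutation p = 0.0571 on each scale).

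Of 9 fibrillar collagen chains, the substrates, 1 rose and none fell, beside 45.8% of all genes called: Col2a1, the chain of cartilage collagen, went from 226 ± 3.49 to 307 ± 40.1 CPM (adjusted p = 0.00140 on a log2 fold change of 0.44); it is also one of the chondrocyte markers. Col1a1 and Col1a2 had log2 fold changes of 0.12 (adjusted p = 0.492) and 0.01 (adjusted p = 0.970). Of 10 elastic fibre components, which include the lysyl oxidase substrate elastin, none was called by edgeR with TMM normalization. Fbn2, the 1 gene at an unadjusted p under 0.05 there, was called upward by DESeq2 and by edgeR with the size factors of DESeq2. Without PTH replicate 1, the fibrillins Fbn1 and Fbn2 rose and Emilin1 fell, and without Vehicle replicate 1 Fbn2 rose. Col5a1, a chain of collagen V, rose without PTH replicate 2.

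The partners of prolyl 4-hydroxylase did not pass the test: P4hb, the disulfide isomerase subunit, was at 0.01 on the log2 scale (adjusted p = 0.956), and P4ha3, the remaining catalytic subunit, was at 0.16 (adjusted p = 0.213). Neither had an unadjusted p under 0.05 in edgeR, and neither was called by DESeq2. With P4ha3 counted in the family, a choice made after the data were seen, the P4ha1 share went from 46.8% ± 8.40 to 35.8% ± 1.84 (−11.01 points, exact permutation p = 0.0286). Among the vehicle samples, replicate 4 had the highest P4ha1 (444 CPM) and the lowest P4ha3 (178 CPM). The differences given above for leaving out 1 sample are of the share without P4ha3. Of 6 genes of prolyl 3-hydroxylation, Ppib, the cyclophilin of that complex, rose (log2 fold change 0.23, adjusted p = 0.0186). The Ppib call was lost without PTH replicate 3, Vehicle replicate 2, Vehicle replicate 3 or Vehicle replicate 4, where the adjusted p reached 0.0736. P3h1, the hydroxylase itself, was at −0.18 (adjusted p = 0.220) and passed without PTH replicate 1, at −0.29, where P3h2 and Crtap fell as well. With all samples P3h2 was at −0.58 (adjusted p = 0.0891). It also fell without Vehicle replicate 2, whereas leaving out Vehicle replicate 4 gave −0.38 (adjusted p = 0.275).

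Of 10 genes of procollagen folding and export, 1 rose and 1 fell. Mia3, which loads procollagen into transport vesicles, went from 91.1 ± 4.07 to 127 ± 8.19 CPM (adjusted p = 8.60e-05 on a log2 fold change of 0.48). Tmem38b, an ion channel of the endoplasmic reticulum whose loss causes brittle bones, went from 14.6 ± 1.33 to 9.48 ± 0.326 CPM (adjusted p = 1.99e-04 on a log2 fold change of −0.62). The chaperone Serpinh1 and the prolyl isomerase Fkbp10, a partner of PLOD2, had log2 fold changes of −0.14 (adjusted p = 0.352) and −0.22 (adjusted p = 0.173), and Fkbp10 passed without PTH replicate 1, at −0.32. The chaperone Hspa5 rose without PTH replicate 2, and the oxidase Ero1l rose without Vehicle replicate 4. None of 3 genes of hydroxylysine glycosylation was called by edgeR or DESeq2, and none had an unadjusted p under 0.05. Colgalt1, the main collagen galactosyltransferase, was at −0.13 (adjusted p = 0.336), and at −0.23, past the threshold, without PTH replicate 1. Of 8 genes that process procollagen or lysyl oxidase precursors, 7 were tested and Tll2 had 0 counts in all samples. Bmp1, the protease that removes the carboxyl propeptide of procollagen and activates LOX, rose from 327 ± 11.6 to 410 ± 31.5 CPM (adjusted p = 0.00264 on a log2 fold change of 0.33). Its enhancer Pcolce was at −0.08 (adjusted p = 0.554). The related Pcolce2 was at −0.51 (adjusted p = 0.0887) and fell without PTH replicate 1 or without Vehicle replicate 1. Leaving out Vehicle replicate 4 gave −0.22 for Pcolce2 (adjusted p = 0.341).

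Of 5 genes that supply copper to lysyl oxidases or ascorbate to the hydroxylases, 3 rose and 1 fell, beside 45.8% of all genes called. Slc23a2, an ascorbate transporter, rose most, from 58.9 ± 2.92 to 118 ± 9.02 CPM (adjusted p = 2.67e-07 on a log2 fold change of 1.003). The copper chaperone Atox1 rose from 44.5 ± 5.39 to 72.7 ± 13.5 CPM (adjusted p = 6.95e-04 on a log2 fold change of 0.71), and the copper importer Slc31a1 from 80.8 ± 5.67 to 108 ± 14.7 CPM (adjusted p = 0.00306 on a log2 fold change of 0.42). Atp7a, the pump that loads copper into lysyl oxidases in the secretory pathway, fell from 29.1 ± 1.87 to 22.9 ± 1.56 CPM (adjusted p = 0.00336 on a log2 fold change of −0.35). These 4 genes did not overlap between treatments, beside 43.0% of all genes tested, and were called in all 8 fits that left out 1 sample. The remaining gene, the ascorbate transporter Slc23a1, overlapped and was barely detected. It averaged 0.224 ± 0.0937 CPM with vehicle and 0.444 ± 0.285 CPM with PTH (adjusted p = 0.200 on a log2 fold change of 0.94).

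Of the 12 genes commonly induced by HIF-1, 5 rose and 2 fell after PTH, beside 23.3% and 22.5% of all genes tested. Without Vehicle replicate 4, Pgk1, a glycolytic enzyme gene, rose too (adjusted p = 0.0422). Vegfa went from 31.6 ± 7.07 to 123 ± 25.3 CPM (adjusted p = 1.63e-06 on a log2 fold change of 1.96), and Slc2a1, the glucose transporter GLUT1, from 17.0 ± 2.66 to 38.1 ± 2.69 CPM (adjusted p = 2.95e-06 on a log2 fold change of 1.16). Adm, the peptide hormone adrenomedullin, fell from 14.5 ± 0.309 to 1.62 ± 0.297 CPM (adjusted p = 3.02e-09 on a log2 fold change of −3.16), so the list moved in both directions.

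**Figure D5:**
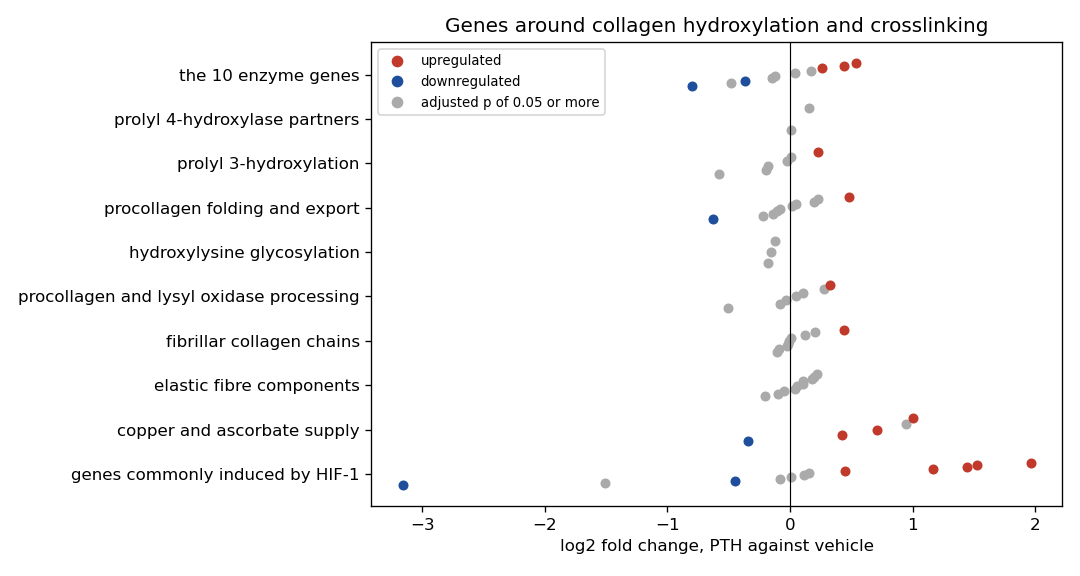
Genes around collagen hydroxylation and crosslinking. The x axis gives the log2 fold change of PTH against vehicle; each point is a gene of the list named on the y axis, red where it rose, blue where it fell and grey where the adjusted p was 0.05 or more. Of the copper and ascorbate list 3 genes rose and 1 fell, of the 9 fibrillar collagen chains 1 rose, and of the 10 elastic fibre components none was called by edgeR with TMM normalization.

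Some enzyme genes share exon sequence with genes on the opposite strand: Loxl3 shares up to 369 bases with Htra2, which reached 39.9 CPM, and Plod3 shares 315 bases with Znhit1, which reached 33.6 CPM. The sources used here do not give the strand setting of the counting, so reads in these overlaps cannot be told apart.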

How the data were processed

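RNA sequencing was performed on 8 osteoblast cultures, and groups were taken from the sample labels. Poly(A) libraries were sequenced, HISAT2 was used for alignment to GRCm38, StringTie2 for assembly, and the authors deposited the raw counts per gene that its companion script gave; tool versions, annotation version, strand setting and the read length given to that script are not given in the sources used here. The deposited counts derive from transcript coverage and were not normalized.

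PTH was compared with vehicle in edgeR 4.0.16 (R 4.3.3) by the two-sided quasi-likelihood F-test with TMM normalization, after filterByExpr (minimum count 10, minimum total 15) left 16736 of 47706 genes. P-values were Benjamini-Hochberg adjusted over all genes tested, and an adjusted p under 0.05 was the threshold. Intervals (95%) use the t quantile with the degrees of freedom of that fit. CPM use TMM-normalized library sizes. Gene positions and exon lengths come from GENCODE M21, and promoters from RefSeq. Shares were compared by exact two-sided permutation over samples (SciPy 1.17.1) with adjustment over the 3 shares. DESeq2 1.42.0, other size factors, no filter, a replicate block, a minimum log2 fold change of 1, counts summed by symbol, rows with a symbol only and leaving out each sample were alternatives. The fitting code was tested on simulated counts with 200 changed genes. The 10 enzyme genes had between 717 and 114233 counts per sample, the fewest for Loxl4. The enzyme genes and the lists were chosen with earlier results of these data known. The text names all enzyme genes, the called gene of each list with the largest rise and fall, and 12 further genes set by name, with Tnfsf11 as a check. Atox1, Slc31a1, Slc23a1, Egln3, Ankrd37, Col11a2, Htra2, Znhit1, Tll2, Fbn2 and genes whose call changed when 1 sample was left out were added after their values were seen.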

Additional observations from a re-analysis of the deposited data

Results flagged for a closer look

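The Plod2 share of the lysyl hydroxylases in Vehicle replicate 1 was 32.6%, while the other vehicle samples lay between 33.9% and 34.1%; the gap was 0.861 of the range of the group, above Dixon's 95% critical value for 4 samples. It was the only such value among 26 groups of 4 samples examined, where chance flags about 1 group in 20. The PTH samples lay between 38.9% and 41.0%, above all vehicle samples.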

How the results depend on the processing

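Plod2, P4ha2 and Loxl4 were called in the same direction in all 14 alternative fits of the counts, Plod3 in 11 and Lox in 10; Plod3 was also lost, at an adjusted p of 0.0696, when low counts were not filtered. With a minimum log2 fold change of 1, 0 enzyme genes rose and 0 fell in edgeR. Leaving out 1 sample at a time gave between 1 and 4 enzyme genes that fell: 4 without PTH replicate 1 (Lox, Loxl4, Plod1 and P4ha1) and 1, Loxl4, without PTH replicate 3, Vehicle replicate 3 or Vehicle replicate 4. In the same 4 fits, 3955 of 17089, 3386 of 17039, 3314 of 17058 and 3429 of 17040 genes tested fell. Loxl1 changed sign when samples were left out, with log2 fold changes between −0.054 and 0.13, and was −0.026 relative to Col1a1 plus Col1a2, an alternative chosen after seeing the data. Samples with the same replicate number did not deviate together (correlations of −0.038, −0.033, −0.041 and 0.027 across genes for numbers 1 to 4), so the numbers were not taken to pair the samples. With the replicate block, 3571 genes rose and 3432 fell, against 3907 and 3762 without it, and P4ha1 passed the threshold (log2 fold change −0.45, adjusted p = 0.0299). Under an exact paired sign-flip permutation test with the replicate block the shares differed by −6.24, 6.44 and −10.9 points for Lox, Plod2 and P4ha1 with p = 0.125, the smallest that 4 pairs can give. With the longest transcript as length the differences were −6.19, 6.70 and −14.4 points. In the prolyl 3-hydroxylation list, the Ppib call was also lost with the replicate block and with no filter, and under the block P3h2 fell, giving 0 up and 1 down. Of the counts of genes up and down in the lists under these alternatives, 231 stayed within 1.5 times the value reported and 21 did not. Many of the values reported were 0 or 1 and stayed the same, so this tally is a weak measure of how stable the lists are.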
